A study of Mus musculus with 24 samples.

Results

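Messenger RNA of colorectal tumours from wild-type (WT) mice was compared with that of colon from untreated WT mice, with 3 libraries per group. These are 6 of the 24 libraries of the series. The libraries were assigned to the groups by the sample labels, and the comparison covers all genes. The comparison and the gene lists were chosen with earlier results of these data known. All mice were of the C57BL/6 strain. Tumours arose in mice given azoxymethane (AOM), a carcinogen that the liver activates and that mutates the colonic epithelium, and dextran sulfate sodium (DSS), which damages the epithelial lining when drunk and brings on colitis. Control colon came from mice labelled untreated and free of disease. A set of WT colon taken at day 7 of DSS, and the tumours and untreated colon of mice that lack Axin1 in intestinal epithelial cells (KO), each with 3 libraries, serve below as comparisons. The driver of the deletion, the age and sex of the mice, the number of DSS cycles, the age of the tumours, and whether a library holds a single tumour or several are not stated in the labels. No adjacent non-tumour colon of AOM/DSS mice was analysed here, so the effects of tumour, AOM, DSS and time since treatment cannot be told apart.

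In the colonic crypt, Wnt proteins keep stem cells at the base dividing. They do so by holding back a complex that destroys beta-catenin. Beta-catenin then enters the nucleus, joins factors of the TCF/LEF family and switches on target genes, among them inhibitors that feed back on the pathway. Cells that leave the base mature into absorptive colonocytes, which take up salt, water and short-chain fatty acids, or into mucus-making goblet cells, hormone-making enteroendocrine cells and chemosensory tuft cells. Paneth cells, which make antimicrobial peptides, belong to the small intestine and are normally scarce in mouse colon. Tumours of AOM/DSS mice are known for mutations that stabilise beta-catenin and for growth in inflamed mucosa.

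Depth was similar in both groups, at 24.01 to 25.27 M expected counts per library in the tumours and 21.87 to 25.13 M in the untreated colon. Mitochondrial genes took 3.3% to 3.93% of the counts in the tumours and 5.63% to 6.27% in the colon. The design describes biological replicates, and libraries of a group are named here as replicates 1 to 3 in no particular order. Untreated replicate 3 and tumour replicate 3 each carried Xist, at 687 and 643 CPM, and no Ddx3y, and the other 4 libraries the reverse, so both groups held the same mix of sexes. Levels are in CPM, counts scaled to library size with edgeR's normalisation factors, and listed values are in the order of replicates 1, 2 and 3. Adjusted p-values are from edgeR's quasi-likelihood test with Benjamini-Hochberg adjustment over all 19056 genes tested. Fold changes are log2 (tumour minus colon) with their standard error (SE), and n = 3 libraries per group throughout.

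Of the 19056 genes, 9290 passed the threshold of 0.05. Of these, 5251 were higher in tumours (27.6% of all tested) and 4039 were lower (21.2%), and 2955 and 2624 of them by more than 2-fold. The median log2 fold change over all genes was 0.09. Values of the 3 tumours and the 3 colons did not overlap for 60.1% of the genes tested. The larger direction depended on the scaling and the libraries fitted. With upper-quartile factors 4374 genes were higher and 4848 lower, with the 12 WT libraries alone 3710 and 4043, and with DESeq2 4933 and 4800. Counts of list members below are to be read against these shares. The plot of list members by direction shows the lists in order of their median.

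**Figure D1:**
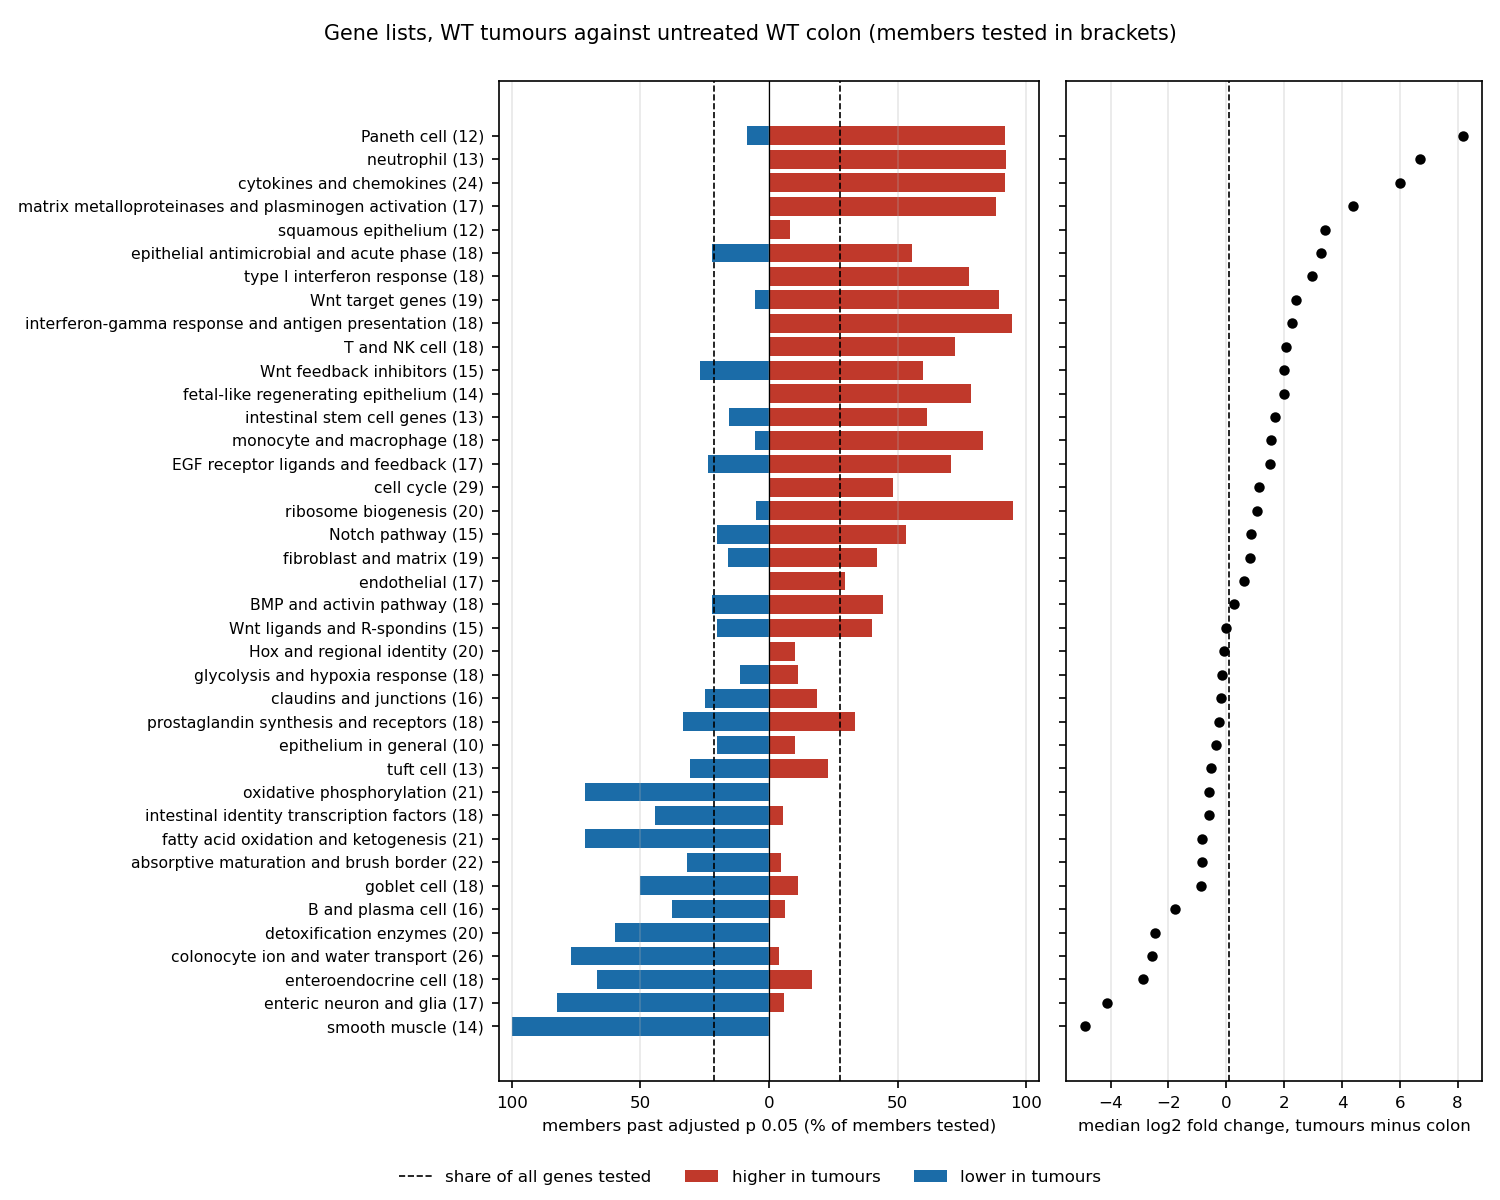
Left, share of the tested members of each gene list that were higher (right of 0) or lower (left of 0) in WT tumours than in untreated WT colon, with dashed lines at the shares of all genes tested (27.6% higher, 21.2% lower). Right, median log2 fold change of each list, with the dashed line at the median of all genes (0.09). Paneth cell, neutrophil and cytokine lists stand at the top, and smooth muscle and enteric neuron lists at the bottom.

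Markers were checked against the labels. Epcam, an adhesion protein of epithelial cells, stood at 1774, 1265 and 1411 CPM in the tumours and 1555, 1683 and 1479 CPM in the colon, and did not pass edgeR's test (log2 fold change -0.08, SE 0.16, adjusted p = 0.69). The list of epithelium in general was higher in 1 and lower in 2 of 10 tested, below the shares over all genes, with a median of -0.34. With upper-quartile factors 6 of its members were called. Its summed level ran from 9067 to 13305 CPM in tumours and from 12980 to 16762 CPM in colon. All 14 smooth muscle genes were lower in tumours, with a median of -4.88. Myh11, the smooth muscle myosin heavy chain, had 36.1, 20.3 and 11.6 CPM in tumours against 1647, 2086 and 1331 CPM in colon. Its log2 fold change was -6.22 (SE 0.60, adjusted p = 5.27e-07), and the groups lay far apart. Of 17 genes of enteric neurons and glia, 14 were lower and 1 was higher, with a median of -4.14. Vip, a neuropeptide of the gut wall, had at most 0.117 CPM in tumours against 11.6, 17.6 and 29.6 CPM in colon. The summed level of the smooth muscle list ran from 231 to 395 CPM in tumours and from 7405 to 11419 CPM in colon, and that of the neuron and glia list from 155 to 208 CPM and from 507 to 598 CPM. In bulk tissue, fewer cells of a type and less RNA per cell cannot be told apart. The muscle wall moved with the comparison throughout, and its part in the results below was not tested. The exocrine pancreas marker Cpa1 had at most 0.248 CPM in tumours and no count in colon, and the fat marker Adipoq had none in tumours. The summed level of the exocrine pancreas list ran from 42.9 to 56.8 CPM in tumours and from 287 to 416 CPM in colon. Of its 8 genes only Cela1 was high enough to be tested, so this sum rests mainly on that gene. Cpa1, Prss1, Prss2 and Amy2b had no count in any untreated WT colon library. That of the adipocyte list ran from 5.1 to 10.7 CPM in tumours and from 31.5 to 36.7 CPM in colon. Of the members tested, 1 of 1 and 2 of 4 were lower and none higher. The part of these tissues in the results was not tested. The stratified epithelium list was higher in 1 of 12 tested and lower in none, with a median of 3.43, and its summed level ran from 29.3 to 119 CPM in tumours and from 9.73 to 12.6 CPM in colon. Dsg3, a desmosomal cadherin, had 3.32, 5.42 and 24.2 CPM in tumours and 0.217, 0.277 and 0.178 CPM in colon (5.58, SE 1.88, adjusted p = 0.0197). This call was lost without any untreated replicate or tumour replicate 3 (up to 0.0822). The basal keratin gene Krt14 had 5.03, 20.5 and 42.8 CPM in tumours and 0.867, 1.94 and 0.933 CPM in colon (4.18, SE 1.99, adjusted p = 0.0898), and passed with DESeq2 (0.0188) and when these 6 libraries were fitted alone (0.00853), a fit that called 5 genes of the list. Krt5 had at most 0.0708 CPM in tumours. The part of such epithelium in the results was not tested.

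**Figure D2:**
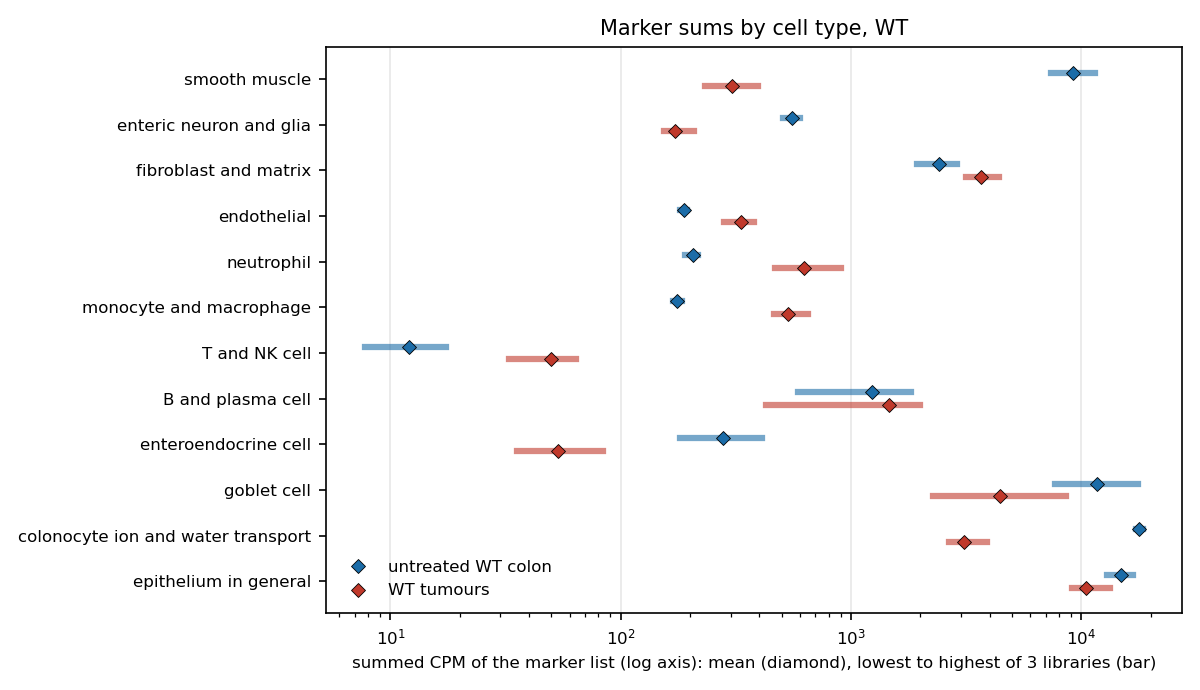
Summed CPM of the marker genes of each cell type (log axis) in untreated WT colon and WT tumours, with the mean of 3 libraries as a diamond and the lowest to highest library as a bar. Smooth muscle sums were 7405 to 11419 CPM in colon and 231 to 395 CPM in tumours, and the bars of B and plasma cells and of goblet cells overlap between the groups.

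Wnt feedback inhibitors were among the genes with the strongest rise. Notum, a secreted enzyme that inactivates Wnt proteins, went from a few counts per library to an abundant message. Of 15 feedback genes tested, 9 rose and 4 fell, with a median log2 fold change of 2.01 (Dkk1 and Dkk4 were too low to test). Exons of 90 of the 391 genes named under the rule overlap another gene in the annotation. Notum (ENSMUSG00000042988, GRCm38 chr11:120653788-120661175) had 175, 289 and 253 CPM in tumours and 0.13, 0.0395 and 0.267 CPM in colon. Its log2 fold change was 10.67 (SE 0.54, adjusted p = 9.47e-10), and the lowest tumour stood far above the highest colon library. In the annotation the antisense gene Notumos overlaps its exons, and without a stated strand setting the reads of the pair cannot be told apart. Wif1, a secreted protein that binds Wnt, had 166, 368 and 312 CPM against 1.17, 0.79 and 1.2 CPM (8.06, SE 0.65, adjusted p = 1.35e-07). Nkd1, an intracellular brake on Dishevelled, had 323, 583 and 518 CPM against 13.6, 15.5 and 10.9 CPM (5.15, SE 0.55, adjusted p = 1.38e-06). Axin2 (chr11:108920349-108950783), a scaffold of the destruction complex and a direct target of beta-catenin, had 176, 398 and 410 CPM against 24.6, 25.1 and 30 CPM (3.63, SE 0.26, adjusted p = 6.52e-08). For each of these genes tumour replicate 1 was the lowest of the tumours and still far above every colon library. Dkk2 (6.07) and Apcdd1 (6.92) rose as well, and the ubiquitin ligases Rnf43 (2.01) and Znrf3 (2.20), which remove Wnt receptors, rose less. The 4 members that fell were Nkd2, with a log2 fold change of -2.04, and the secreted Frizzled-related genes Sfrp2 (-2.57), Sfrp4 (-3.73) and Sfrp5 (-2.92).

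Wnt target genes rose as a group, with 17 of 19 tested higher, 1 lower and a median of 2.42. Sp5, a transcription factor induced by Wnt, had 18.4, 102 and 70.3 CPM in tumours, against 3 counts over all colon libraries, a ratio of 1541 (exact 95% counting interval 527 to 7473). Prox1, a homeobox factor, had 221, 381 and 308 CPM against 4.94, 3.68 and 3.11 CPM (6.28, SE 0.35, adjusted p = 3.33e-09). Lef1 and Tcf7, which are themselves partners of beta-catenin, had log2 fold changes of 5.02 (SE 0.56) and 3.59 (SE 0.35). Myc (2.30, SE 0.28) and the cyclin gene Ccnd1 (2.42, SE 0.25) rose by smaller steps. Myc had 96.4, 82.8 and 131 CPM in tumours and 17.5, 19.8 and 25.9 CPM in colon, with no overlap. Sox9 (1.26), Ephb2 (1.06) and Ephb3 (1.24), which mark the crypt base, rose least among the named targets. The only member of this list that was lower was Cdk8, with a log2 fold change of -0.30. T, which encodes brachyury, was outside the list and among the largest changes of all genes, with 19.7, 35.6 and 20.2 CPM in tumours and no count in colon, or at least 600-fold higher against a floor of 3 counts over the group, which is used for every such bound.

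Promoters were examined for motifs of the factors that read these pathways. Sp5 is shown because it holds a TCF/LEF motif, and Mcm7, Mcm5 and Cdc6 because they hold E2F motifs. These are the members of the Wnt and cell cycle lists with the smallest p-values among those that rose and hold a match upstream of the start. The sequences are the 250 bases before the transcription start from RefSeq on GRCm38.p6, 5′ to 3′ on the gene's strand, with the matches in capitals.
Sp5 chr2:70474673-70474922 (plus strand): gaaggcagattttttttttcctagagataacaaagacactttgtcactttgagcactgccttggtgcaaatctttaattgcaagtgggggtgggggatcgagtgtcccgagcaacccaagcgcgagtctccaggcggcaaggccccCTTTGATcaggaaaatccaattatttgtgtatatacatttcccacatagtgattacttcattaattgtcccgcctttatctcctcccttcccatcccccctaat
Mcm7 chr5:138171884-138172133 (minus strand): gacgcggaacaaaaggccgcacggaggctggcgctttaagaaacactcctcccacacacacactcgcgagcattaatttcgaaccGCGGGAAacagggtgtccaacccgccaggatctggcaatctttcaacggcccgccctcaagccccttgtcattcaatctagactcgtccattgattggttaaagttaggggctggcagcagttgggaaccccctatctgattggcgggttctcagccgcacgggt
Mcm5 chr8:75109259-75109508 (plus strand): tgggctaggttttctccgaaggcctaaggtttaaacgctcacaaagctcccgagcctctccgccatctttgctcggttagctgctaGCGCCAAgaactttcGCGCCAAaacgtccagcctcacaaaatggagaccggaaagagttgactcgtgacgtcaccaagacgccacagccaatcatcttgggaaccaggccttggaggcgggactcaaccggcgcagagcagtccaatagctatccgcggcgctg
Cdc6 chr11:98907901-98908150 (plus strand): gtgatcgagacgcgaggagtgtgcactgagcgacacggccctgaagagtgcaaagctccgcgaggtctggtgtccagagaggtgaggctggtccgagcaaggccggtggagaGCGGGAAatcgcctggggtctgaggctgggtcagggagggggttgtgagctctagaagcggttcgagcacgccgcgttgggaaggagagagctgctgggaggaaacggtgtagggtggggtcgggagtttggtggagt
The TCF/LEF search was for CTTTGAA or CTTTGAT and the E2F search for TTCCCGC or TTGGCGC, on both strands. In Sp5 the match begins 104 bases before the start on the gene's strand. In Mcm5 both matches read on the opposite strand and begin 164 and 149 bases before the start. Windows from 250 bases before to 50 after the start held a TCF/LEF match in 1 of 9 Wnt feedback genes with an entry (11.1%), in 3 of 14 Wnt target genes (21.4%) and in 9.88% of 27025 genes with an entry. E2F matches were found in 9 of 25 cell cycle genes (36%) and in 7.79% of all genes. A match is a description of the letters in a window and not evidence of binding.

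Wnt ligands and R-spondins moved in both directions, with 6 of 15 higher, 3 lower and a median of -0.01 (1.32 without untreated replicate 2). Wnt10a (chr1:74791516-74804179) had 14.2, 66.8 and 38.1 CPM in tumours and no count in the colon libraries, which makes it at least 961-fold higher. Wnt6 had 32.5, 78.3 and 45.1 CPM against 1.47, 1.94 and 1.56 CPM (4.97, SE 0.50, adjusted p = 7.23e-07). Wnt3, which Paneth cells supply to stem cells in the small intestine, had 3.43, 4.23 and 3.19 CPM in tumours against at most 0.178 CPM (5.57, SE 0.75). Wnt5a, a ligand of the stroma, rose by 2.42 (SE 0.35). The 3 that fell were R-spondins, which stroma secretes to amplify Wnt signals. Rspo3 had 1.79, 0.629 and 1.27 CPM in tumours against 7.28, 6.84 and 4.67 CPM in colon (-2.34, SE 0.58, adjusted p = 0.00269), and Rspo1 and Rspo2 had at most 0.632 and 0.474 CPM in any library. The call for Rspo1 (adjusted p = 0.0277) reached 0.102 in other settings and was lost without untreated replicate 1 or 2 or tumour replicate 2 or 3. The fall of the R-spondins stood beside that of the muscle list, and a link between them was not tested.

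**Figure D3:**
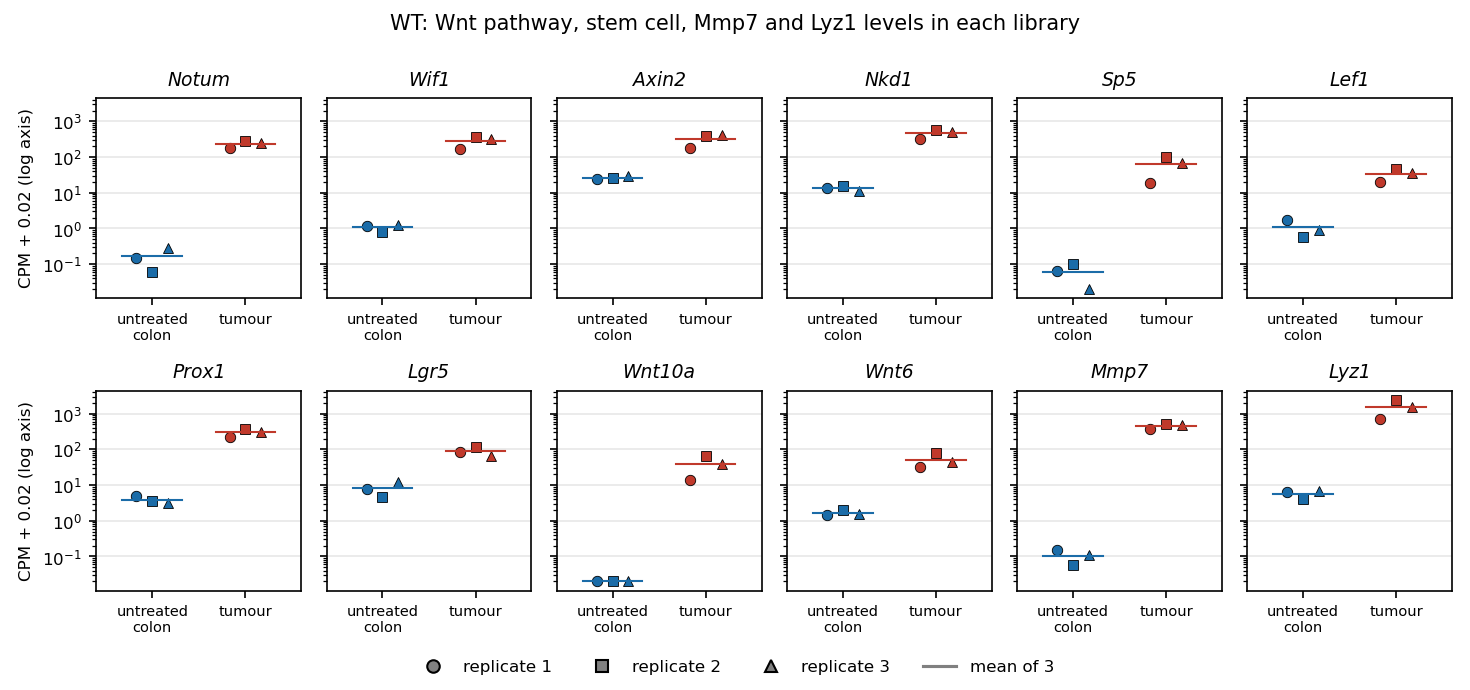
CPM of 12 genes in each of the 3 untreated WT colon and 3 WT tumour libraries (log axis, 0.02 added so that 0 can be drawn), with the shape marking the replicate and the line the mean of 3. No tumour overlaps a colon library for any of the 12, and tumour replicate 1 is the lowest tumour for all but Lgr5.

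Intestinal stem cell genes were higher in 8 and lower in 2 of 13 tested, with a median of 1.67. Lgr5, the receptor that marks crypt base stem cells, had 84.4, 116 and 66 CPM in tumours and 8.02, 4.74 and 12.3 CPM in colon (3.41, SE 0.60, adjusted p = 0.000162). Ascl2, a transcription factor of these cells, had 9.91, 29 and 34.6 CPM against 4.46, 4.55 and 7.16 CPM (2.18, SE 0.59, adjusted p = 0.005). Smoc2 and the RNA-binding protein gene Msi1 rose by 2.11 (SE 0.35) and 4.49 (SE 0.73). Rgmb (-0.98) and Lrig1 (-0.80), a brake on growth factor receptors, fell. Genes of fetal-like, regenerating epithelium were higher in 11 of 14 tested and lower in none. Ly6a had 930, 566 and 841 CPM against 118, 136 and 114 CPM (2.67, SE 0.35, adjusted p = 8.38e-06). Clu, a marker of revival stem cells, rose by 1.96 (SE 0.60, adjusted p = 0.0118, and 0.0517 without untreated replicate 2).

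Of 29 cell cycle genes, 14 were higher and none lower, with a median of 1.13. When these 6 libraries were fitted alone, 24 were called. The helicase subunits Mcm2 (2.11, SE 0.20), Mcm3 (2.27, SE 0.22) and Mcm4 (1.85, SE 0.19), the nucleotide reductase subunit Rrm2 (2.81, SE 0.28) and the cyclin Ccne1 (2.17, SE 0.22) were among those with the smallest p. Mcm2 had 53.1, 71.9 and 72.5 CPM in tumours against 13.5, 15.7 and 16.7 CPM in colon. Mki67, the gene of the Ki-67 antigen, had 233, 190 and 169 CPM in tumours and 236, 215 and 121 CPM in colon, and these ranges overlap (0.05, SE 0.52, adjusted p = 0.946). Cdk1 (0.90, SE 0.46, adjusted p = 0.118) and Ccnb1 (0.90, SE 0.66, adjusted p = 0.272) lay above colon in every tumour but did not pass. Both passed when these 6 libraries were fitted alone (0.0197 and 0.031). Top2a rose by 1.36 (SE 0.45, adjusted p = 0.0171, and 0.0767 without untreated replicate 3). Untreated replicate 3 was the lowest colon library for Mki67, Top2a, Cdk1 and Ccnb1. Cdkn2a, which encodes the inhibitors p16 and p19, had 5.03, 3.14 and 26.3 CPM in tumours against 2 counts over all colon libraries, a ratio of 413 (95% counting interval 114 to 3414). Ribosome biogenesis genes were higher in 19 of 20 and lower in 1 (Utp20, -1.24), with a median of 1.07. Nop56, part of the machinery that modifies ribosomal RNA, had 127, 136 and 164 CPM against 37.4, 44.4 and 47.1 CPM (1.73, SE 0.18, adjusted p = 9.18e-07).

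Paneth cell genes showed the highest list median, 8.19, with 11 of 12 tested higher and 1 lower. Lyz1 (chr10:117287797-117292868), the lysozyme of Paneth cells, had 726, 2469.9 and 1536 CPM in tumours and 6.2, 4.03 and 6.98 CPM in colon (8.10, SE 0.71, adjusted p = 2.49e-07). Per transcript length it averaged 2288 TPM in tumours (SD 1328), next to 1487 TPM for Epcam (SD 207). Itln1, an intestinal lectin, had 90.8, 764 and 174 CPM against 1.17, 0.988 and 1.33 CPM (8.20, SE 0.94). Alpha-defensins were led by Defa24, with 49.1, 484 and 285 CPM against at most 0.607 CPM (9.88, SE 1.07, adjusted p = 1.46e-06), and Defa3 had 17.5, 207 and 125 CPM with no count in colon, or at least 2840.0-fold higher. Tumour replicate 1 was the lowest tumour for every defensin named. These genes have near-identical copies among which reads may be split, so the values of single defensins are uncertain. Several defensins are in the Paneth cell list, so its count and median do not rest on independent members. Mptx1, a mucosal pentraxin, went the other way, with 0.624, 3.95 and 2.94 CPM in tumours against 1316, 982 and 2109.7 CPM in colon (-9.19, SE 1.77, adjusted p = 0.000354).

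Mature absorptive functions were lower. Of 26 genes of colonocyte ion and water transport, 20 fell and 1 rose, with a median of -2.57. The single rise was Slc4a1ap (0.32), an adaptor and not a transporter. Slc26a3, the chloride/bicarbonate exchanger whose loss causes congenital chloride diarrhoea, had 73.2, 0.804 and 1.42 CPM in tumours and 1480.2, 2017 and 1555 CPM in colon (-6.07, SE 1.28, adjusted p = 0.000772). The water channel Aqp8 had 51.2, 0.524 and 1.06 CPM against 506, 538 and 782 CPM (-5.12, SE 1.15, adjusted p = 0.00132). For both genes tumour replicate 1 lay far above the other tumours, yet below every colon library. The carbonic anhydrase Car4 (-5.56, SE 0.66), the sulfate carrier Slc26a2 (-4.72, SE 0.59) and the butyrate carrier Slc5a8 (-3.91, SE 0.73) fell too. Subunits of the sodium channel ENaC fell by 4.56 (Scnn1g) and 2.18 (Scnn1b) on the log2 scale. Genes of detoxification were lower in 12 of 20 and higher in none, with a median of -2.48 (-3.91 without tumour replicate 1). Adh1, an alcohol and retinol dehydrogenase, had 39.6, 16.1 and 18.2 CPM against 1251, 1128 and 1404 CPM (-5.68, SE 0.79, adjusted p = 1.56e-05). Slc30a10, a manganese exporter, had at most 0.273 CPM in tumours and 76.4, 8.14 and 64.9 CPM in colon (-8.61, SE 1.13, adjusted p = 9.12e-06). Brush border genes were lower in 7 of 22, with 1 higher, and 14 were called without tumour replicate 1. Muc3 (-3.24, SE 0.75) and Mep1a (-3.14, SE 0.75) fell, whereas Vil1 (-0.50, SE 0.24, adjusted p = 0.0965) did not pass.

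Goblet cell genes were lower in 9 and higher in 2 of 18, with a median of -0.87 (-1.64 without tumour replicate 1). Clca1 had 494, 76.8 and 124 CPM in tumours against 2278, 1946 and 4400.3 CPM (-3.63, SE 0.64, adjusted p = 0.000148), and Fcgbp, a mucus protein, fell by 2.21 (SE 0.44). Muc2, the main colonic mucin, had 4282, 715 and 581 CPM in tumours and 1267, 929 and 3459.7 CPM in colon, and the groups overlap fully (-0.02, SE 0.78, adjusted p = 0.986). Those that rose were Ang4 (6.24, SE 1.94, adjusted p = 0.0125, and 0.0512 without untreated replicate 1) and Retnlb (7.35, SE 2.55, adjusted p = 0.023), the latter with 126, 0.489 and 15.8 CPM in tumours and a call that was lost without untreated replicate 1 or 2 or tumour replicate 1 (adjusted p up to 0.119). Enteroendocrine genes were lower in 12 and higher in 3 of 18, with a median of -2.89. Chga, which fills hormone granules, had 5.78, 1.01 and 6.09 CPM against 42.2, 30 and 69.7 CPM (-3.46, SE 0.50, adjusted p = 2.46e-05), and the hormone genes Insl5 (-5.61), Sst (-6.11) and Pyy (-2.76) fell with it. The 3 that rose were Nts, Iapp and Isl1. Tuft cell genes were lower in 4 and higher in 3 of 13, with a median of -0.52 (0.38 without untreated replicate 3, -0.82 without tumour replicate 1). These counts are not far from the shares over all genes. Dclk1, a marker of these cells, had 5.85, 4.02 and 2.9 CPM in tumours and 7.41, 6.8 and 17 CPM in colon (-1.29, SE 0.47, adjusted p = 0.0295), a call lost without untreated replicate 3 or tumour replicate 2 or 3 (up to 0.223). The markers Trpm5 (-1.65, SE 0.83, adjusted p = 0.11) and Pou2f3 (-1.28, SE 0.81, adjusted p = 0.201) did not pass, and Avil, an actin-binding protein of tuft cells, had 26.4, 117 and 165 CPM against 1.52, 1.98 and 6.22 CPM (4.99, SE 0.69, adjusted p = 1.55e-05).

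Transcription factors of intestinal identity were lower in 8 of 18, with 1 higher and a median of -0.60. Klf4, a factor of differentiated cells, had 236, 95 and 98.2 CPM in tumours and 727, 1012 and 680 CPM in colon (-2.50, SE 0.41, adjusted p = 8.32e-05). The vitamin D receptor gene Vdr had 79.9, 31.4 and 32.3 CPM against 592, 581 and 528 CPM (-3.57, SE 0.49, adjusted p = 1.44e-05). Hnf4a (-1.24) and Cdx1 (-1.47) fell by smaller steps. Cdx2, a caudal homeobox factor, split both groups, with 137, 12 and 2.27 CPM in tumours and 9.32, 9.88 and 75.5 CPM in colon (0.68, SE 1.18, adjusted p = 0.662). Hoxd13, a homeobox gene of the distal gut, split them the opposite way, with 0.039, 149 and 171 CPM in tumours and 215, 214 and 11.2 CPM in colon (-0.46, SE 1.47, adjusted p = 0.816). Tumour replicate 1 and untreated replicate 3 were thus the Cdx2-high, Hoxd13-low library of their group. Hoxb13 was lowest in the same 2 libraries, at 15.1 and 344 CPM. Slc9a3, a sodium/proton exchanger, was far higher in untreated replicate 3, at 538 CPM, than in the other colons, at 22.9 and 8.66 CPM. Tumour replicate 1 was also the highest tumour for Slc26a3, Aqp8, Krt20 (1028, 306 and 250 CPM), Muc2 and Zg16. Of 20 Hox and regional genes tested, 2 rose (Hoxa9 and Hoxa10) and none fell, which is below the share over all genes. Hoxa10 (0.72, adjusted p = 0.0215) lost its call without untreated replicate 1 or 2 or tumour replicate 1, with an adjusted p up to 0.284. The labels do not say where along the colon each piece was taken.

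**Figure D4:**
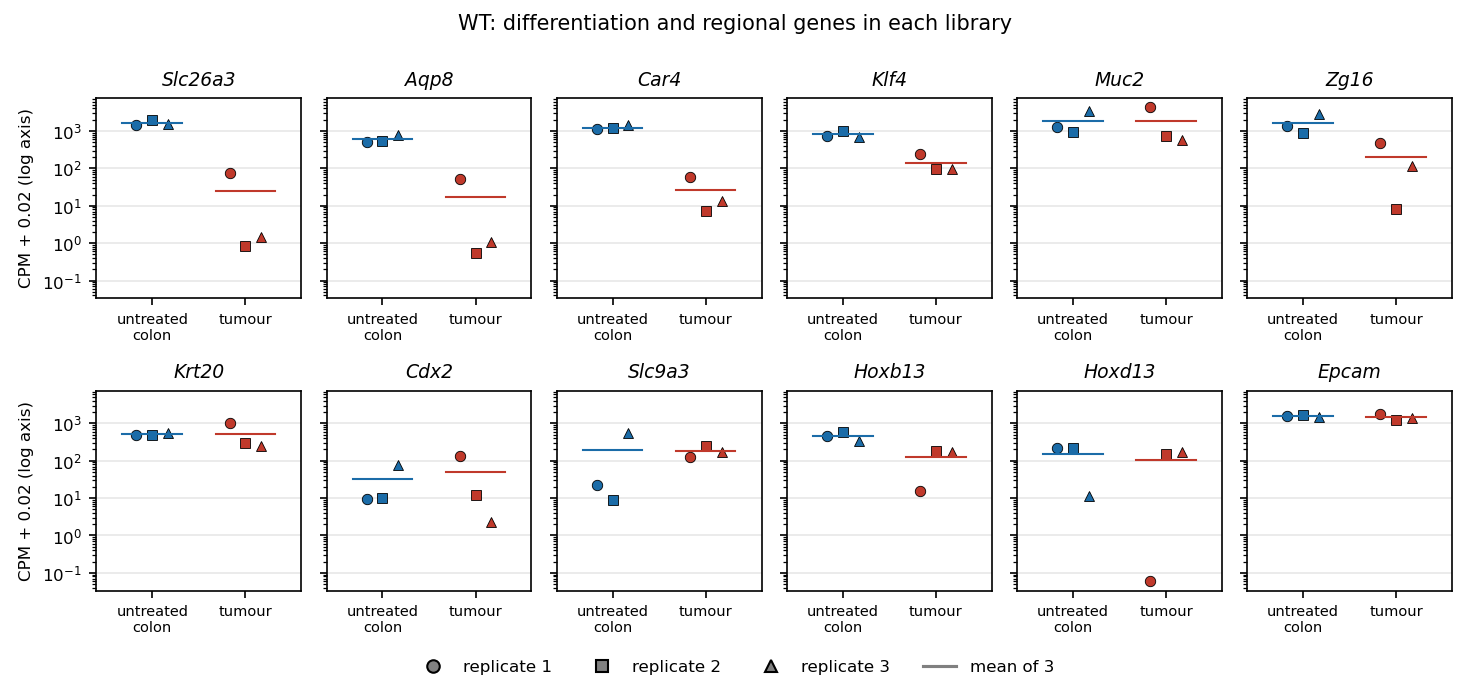
CPM of 12 epithelial and regional genes in each WT library (log axis, 0.02 added so that 0 can be drawn), with the shape marking the replicate and the line the mean of 3. Slc26a3, Aqp8, Car4 and Klf4 are lower in all 3 tumours, Cdx2 is highest in tumour replicate 1 and untreated replicate 3, and Hoxd13 is lowest in the same libraries.

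Fatty acid oxidation genes fell in 15 of 21 and rose in none, with a median of -0.83. Acadm, the medium-chain dehydrogenase, had 63.2, 50.5 and 46.9 CPM in tumours against 148, 164 and 136 CPM (-1.48, SE 0.18, adjusted p = 4.88e-06), and Cpt1a, which admits fatty acids to mitochondria, fell by 1.40 (SE 0.18). Ppara, a nuclear receptor that drives these genes, fell by 2.97 (SE 0.61). Subunits of oxidative phosphorylation fell in 15 of 21, with none higher and a median of -0.59, as in Sdha (269, 209 and 202 CPM against 413, 372 and 390 CPM). Glycolysis and hypoxia genes were called in 2 of 18 upwards and 2 downwards, which is below the share over all genes, and 2 were called in all without tumour replicate 2. Slc16a3, a lactate exporter, rose by 2.48 (SE 0.39), while Ldha, Slc2a1, Hk2, Vegfa and Car9 did not pass, with adjusted p from 0.0718 to 0.925. In prostaglandin metabolism, 6 of 18 rose and 6 fell, which is somewhat above the share over all genes in each direction. Ptgs2, the inducible cyclooxygenase, had 35.4, 32.6 and 156 CPM against 2.86, 6.01 and 2 CPM (4.36, SE 0.84, adjusted p = 0.000352). Hpgd, which degrades prostaglandins, had 25.3, 11.3 and 10.7 CPM against 209, 194 and 210 CPM (-3.70, SE 0.46, adjusted p = 5.41e-06), and Slco2a1, which carries them into cells, fell by 2.78 (SE 0.23).

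Inflammatory mediators rose broadly. Of 24 cytokines and chemokines tested, 22 were higher and none lower, with a median of 6.02 (5.91 with the 3 genes at 0 in colon set at their lower bound). Cxcl2, a chemokine for neutrophils, had 14, 44.9 and 124 CPM in tumours against 2 counts over all colon libraries, a ratio of 2209 (95% counting interval 611 to 18244). Il1b had 76, 57 and 143 CPM against 0.173, 0.277 and 0.489 CPM (8.19, SE 0.96, adjusted p = 3.22e-06). Il11, a stromal cytokine of the gp130 family, had 14.6, 25.7 and 132 CPM against 0.303, 0.277 and 0.311 CPM (7.57, SE 1.14, adjusted p = 3.41e-05). Tumour replicate 3 was the highest for Cxcl1, Cxcl2, Il1b, Il11, Il6 and Tnf. Il23a, a subunit of IL-23, was highest in tumour replicate 2 instead, with 3.32, 28.2 and 13.3 CPM (5.09, SE 0.68, adjusted p = 1.11e-05). Ccl20 and Il10 did not pass. Neutrophil genes were higher in 12 of 13, with a median of 6.71 (6.53 with bounds). S100a8 had 50.7, 84.4 and 86 CPM in tumours against 3 counts over the colon libraries, a ratio of 1760 (95% counting interval 602 to 8534), and Cxcr2 was at 0 in colon and at least 262-fold higher.

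Proteases of the matrix and of plasminogen activation were higher in 15 of 17 and lower in none, with a median of 4.39. Mmp7 (chr9:7692090-7699585), a protease made by epithelial tumour cells and Paneth cells, had 365, 526 and 475 CPM against 0.13, 0.0395 and 0.0889 CPM (12.30, SE 1.32, adjusted p = 1.39e-06). Mmp10 (10.35, SE 1.16) and Mmp13 (8.24, SE 1.02) rose too, and Mmp3 had 25.4, 43.6 and 249 CPM. Timp2 and Timp3, inhibitors of these enzymes, did not pass, and Timp1 rose by 3.99 (SE 0.62). Of 18 epithelial antimicrobial and acute phase genes, 10 were higher and 4 lower, with a median of 3.27. The summed level of this list was 8203 to 18037 CPM in tumours and 16961 to 19727 CPM in colon, with means of 12714 and 18094 CPM. Lcn2, which withholds iron from bacteria, had 87.7, 202 and 338 CPM against 0.823, 1.78 and 1.51 CPM (7.24, SE 0.89, adjusted p = 4.93e-06). Reg3g, a lectin that kills Gram-positive bacteria, had 738, 719 and 534 CPM against 0.867, 0.158 and 0.889 CPM (10.03, SE 2.73, adjusted p = 0.00534). DESeq2 gave no adjusted p for Reg3g. Pigr, which carries IgA to the lumen, fell by 1.70 (SE 0.35), and Ccl28 had a log2 fold change of -3.06 (SE 0.67), a chemokine for IgA plasma cells.

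Monocyte and macrophage genes were higher in 15 of 18 and lower in 1, with a median of 1.53. The exception was Cd163, a scavenger receptor of resident macrophages, with 0.156, 0.0699 and 0.142 CPM in tumours and 5.72, 4.47 and 4.8 CPM in colon (-5.30, SE 0.72, adjusted p = 1.27e-05). Arg1 had 39.6, 74.3 and 54.1 CPM against 0.26, 0.277 and 0.667 CPM (7.12, SE 2.13, adjusted p = 0.0098). T and NK cell genes were higher in 13 of 18, all at low levels. Gzmb, a granule protease, had 3.36, 3.21 and 3.33 CPM against 3 counts over colon, a ratio of 77.9 (95% counting interval 26.4 to 380). Cd3e, Cd4 and Cd8a passed narrowly, with adjusted p of 0.0354, 0.0479 and 0.0481, and reached 0.131, 0.146 and 0.168 in other settings. Each of these calls was lost when any of several libraries was left out, for Cd4 any of the 6. B and plasma cell genes were lower in 6 and higher in 1 of 16, and 2 were called without tumour replicate 2. The B cell gene Fcer2a (-4.08, SE 1.24) fell, while Igha, the IgA heavy chain, had 806, 17.6 and 813 CPM in tumours and 486, 148 and 720 CPM in colon (0.27, SE 0.93, adjusted p = 0.828).

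Interferon response genes were higher in tumours, but unevenly. Type I interferon genes rose in 14 of 18 with a median of 2.95, and genes of interferon-gamma and antigen presentation in 17 of 18 with a median of 2.28. Cd74, the invariant chain of MHC class II, had 1124, 365 and 1058 CPM against 124, 83.1 and 136 CPM (2.89, SE 0.65, adjusted p = 0.00127). Ido1, an enzyme of tryptophan breakdown, had 235, 11.8 and 289 CPM against 0.823, 0.474 and 0.578 CPM (8.15, SE 1.48, adjusted p = 0.000208). In both of these tumour replicate 2 was lowest, as it was for Igha and Jchain. Isg15 in that library, at 6.01 CPM, stood near untreated replicate 3 at 4.98 CPM.

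Fibroblast and matrix genes were higher in 8 and lower in 3 of 19, with a median of 0.81. Lox, which cross-links collagen, had 32.8, 27.1 and 26.1 CPM against 2.99, 2.85 and 2.09 CPM (3.44, SE 0.54, adjusted p = 4.85e-05), whereas Postn fell by 2.33 (SE 0.45) and Col3a1 did not pass. Endothelial genes were higher in 5 of 17, near the share over all genes (10 called when these 6 libraries were fitted alone). Angpt2, a vessel-remodelling ligand, had 12.3, 19.5 and 20.9 CPM against 3.12, 2.33 and 3.47 CPM (2.56, SE 0.36, adjusted p = 1.56e-05), while Pecam1 (0.35, SE 0.41, adjusted p = 0.504) and Kdr did not pass.

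Ligands and brakes of other growth factor pathways were also called. EGF receptor ligands and feedback genes were higher in 12 and lower in 4 of 17, with a median of 1.50. Ereg, the ligand epiregulin, had 40, 19.3 and 93 CPM against 2.9, 7.51 and 2.49 CPM (3.55, SE 0.82, adjusted p = 0.00156), and Dusp6, which the ERK pathway induces as a brake, rose by 2.01 (SE 0.28). The receptor genes Erbb2 (-1.20) and Erbb3 (-1.20) fell, and Egfr (1.20, SE 0.32) rose. BMP and activin genes were higher in 8 and lower in 4 of 18. Inhba, a subunit of activin, had 37.3, 40.6 and 98.9 CPM against 2.86, 2.65 and 1.33 CPM (4.69, SE 0.63, adjusted p = 1.19e-05), and its antagonist Fst rose by 5.75 (SE 0.79). Bmp7 rose (3.56, SE 0.43), Bmp2 (-1.73) and Bmp3 (-3.33) fell, and Id1, a target of BMP, was at 133, 186 and 207 CPM against 177, 189 and 146 CPM (0.04, SE 0.27, adjusted p = 0.92). Notch genes were higher in 8 and lower in 3 of 15, with Notch1 (1.31, SE 0.30) higher and the ligand Dll1 (-1.58, SE 0.27) lower. Of 16 claudin and junction genes, 3 rose and 4 fell, which is below the share over all genes for rises and near it for falls. Cldn4 had 299, 438 and 498 CPM against 38, 21.2 and 39.2 CPM (3.65, SE 0.39, adjusted p = 1.24e-06), and Cldn8, which seals the distal colon, fell by 3.30 (SE 0.77).

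The same tumours were set against WT colon at day 7 of DSS, to see which of these levels colitis without tumours also showed. The tumour libraries are shared by both comparisons, so the values are given side by side and were not correlated. Against day 7, 6554 genes passed, 16.9% of those tested as higher and 17.5% as lower in tumours, and 2311 when these 6 libraries were fitted alone. The sexes were not balanced here, since Uty, a Y-linked gene, was at 0 in all day 7 libraries and at 24.6, 18.4 and 0 CPM in the tumours. With a Y-linked covariate 5790 genes passed, and sex and condition are partly confounded in this comparison. Notum averaged 0.126 CPM at day 7 (SD 0.0702), and Axin2 averaged 18.3 CPM (SD 2.4). Wnt target genes were higher than at day 7 in 17 of 19 tested, and feedback genes in 8 of 15 with 4 lower. Lgr5 averaged 1.16 CPM at day 7 (SD 1.41), and the difference from tumours was 6.18 (SE 0.71, adjusted p = 5.14e-06). By contrast, 2 of 29 cell cycle genes and 5 of 20 ribosome biogenesis genes were higher than at day 7. Mcm2 averaged 48 CPM at day 7 (SD 4.41) and the difference did not pass (0.46, SE 0.19, adjusted p = 0.0739). Of the 24 cytokines and chemokines, 6 were higher than at day 7. Il1b averaged 28.5 CPM at day 7 (SD 21.9, adjusted p = 0.0568), and Ly6a 937 CPM (SD 219, adjusted p = 0.558). Il23a averaged 0.261 CPM at day 7 (SD 0.162) and was higher in tumours by 5.86 (SE 0.73, adjusted p = 1.19e-05). Mmp7 averaged 0.68 CPM at day 7 (SD 0.887), and all 11 Paneth cell genes that rose against untreated colon were also higher than at day 7. Smooth muscle genes were lower than at day 7 in 14 of 14.

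**Figure D5:**
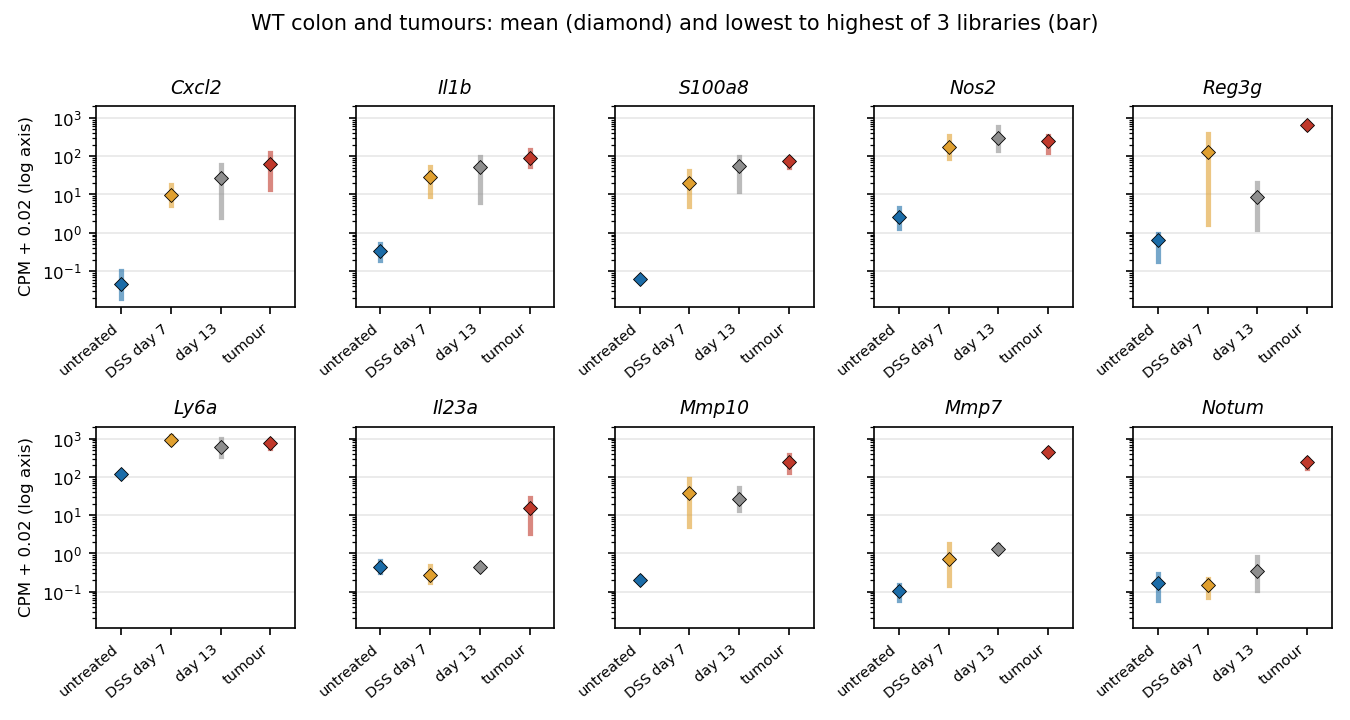
CPM of 10 genes in untreated WT colon, WT colon at days 7 and 13 of the DSS experiment and WT tumours (log axis, 0.02 added so that 0 can be drawn), with the mean of 3 libraries as a diamond and the lowest to highest library as a bar. The day 7 and day 13 ranges of nos2 and ly6a overlap those of the tumours, while for Il23a, Mmp7 and Notum the lowest tumour lies above the highest library of every other group.

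Tumours and untreated colon of the KO mice gave a comparison of the same kind, which shares no library with the WT comparison. Both came from the same fit of all 24 libraries, with a shared filter and estimate of spread, so their calls are not fully independent. In KO, 26.4% of genes were higher and 23.5% lower in tumours. Of the genes called in WT, 7161 were called in the same direction in KO, which is 77.1% of the WT calls and 75.4% of the KO calls, and 16 were called in opposite directions. Notum averaged 254 CPM in KO tumours (SD 52.8) and 0.221 CPM in KO colon (SD 0.0713), and Mmp7 310 CPM (SD 75.9) and 1.65 CPM (SD 2.8). Cell cycle genes were called upwards in 27 of 29 in KO against 14 in WT, and Mki67 had log2 fold changes of 1.57 (adjusted p = 0.0202) in KO and 0.05 in WT. Type I interferon genes went from 14 of 18 higher in WT to none higher and 6 lower in KO. The summed level of this list ran from 298 to 2693 CPM in untreated KO colon, from 196 to 251 CPM in untreated WT colon and from 415 to 536 CPM in KO tumours, so the untreated KO libraries differed widely among themselves. Untreated KO replicate 3 also stood apart from replicates 1 and 2 over all genes, with a chi-square per gene of 161 and 181 against 14.7 between the other pair. The part of these libraries in the KO counts was not tested. Uty ran from 0 to 19.3 CPM in KO tumours and from 21.1 to 25.4 CPM in untreated KO colon. A test of the difference between the genotypes' tumour-colon differences called no gene (0% of those tested) with edgeR, 1653 genes at an unadjusted p under 0.05, and 91 genes with DESeq2. Leaving out WT tumour replicate 2 gave 43 calls with edgeR, leaving out untreated KO replicate 2 gave 20, and leaving out untreated KO replicate 3 gave 14. Zbp1, a sensor induced by interferon, was among the 5 smallest p-values of that test (difference 4.18, SE 0.82, adjusted p = 0.292).

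Further genes were among those with the largest changes. Prss56, a serine protease, had 87.9, 70.8 and 13.3 CPM in tumours and no count in colon, or at least 1333-fold higher, and Prss22 was at least 685-fold higher. Serpinb11 had 0.273, 49.8 and 7.4 CPM with no count in colon, and its adjusted p of 0.0153 reached 0.0644 over the alternatives, among them the one without tumour replicate 2. On the lower side were Rims1 (-8.31, SE 0.89) and Rims4 (-8.15, SE 1.20), which act in vesicle release, the receptor subunit genes Chrna3 (at least 86.9-fold lower) and Htr3a, and Mamdc2 (at least 275-fold lower). The neuron and muscle lists were lower too, and a link of these genes to muscle or neurons was not tested. Cyp2c69, with 4.94, 2.96 and 18.8 CPM in colon, was at 0 in tumours. Cyp2f2 had 37.5, 40.9 and 60.3 CPM in colon and at most 0.195 CPM in tumours (-9.20, SE 2.12, adjusted p = 0.00155). Exosc6, a subunit of the RNA exosome, was listed with 14.9, 18.5 and 17.2 CPM in colon and 0 in all tumours. Its exons overlap those of Aars on the same strand, so its share of the reads is uncertain.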

How the data were processed

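RNA was extracted with Trizol from washed tissue and made into standard Illumina libraries, per the labels' protocols. The deposited values are expected counts and TPM (depth- and length-scaled transcript levels) per gene. The authors aligned reads with STAR 2.7.6a to GRCm38 and estimated the expected counts with RSEM 1.3.1, per the submitters' processing notes, and no source used here gives the annotation release or the strand setting. TPM is deposited beside the counts and was used only to compare genes per length.

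Expected counts were rounded to whole numbers (11.0% to 12.4% of values per library were not whole) and scaled with TMM factors. All 24 libraries in 8 groups were fitted together with edgeR 4.0.16 in R 4.3.3 (robust quasi-likelihood F test, Benjamini-Hochberg threshold 0.05, two-sided) after filterByExpr with a minimum count of 10 and a minimum total of 15. The standard error is the log2 fold change divided by the square root of F. The code was tested on simulated counts for the WT tumour comparison over 18393 genes. There 58 of 100 genes changed 2-fold and 99 of 100 changed 4-fold were recovered and 8 unchanged genes were called. The simulation gave every gene the same spread between replicates, and equal levels in all groups apart from the changed genes. In the data far more genes were called and the spread differed between genes, so these recovery rates need not hold there. The 4 comparisons were rerun with DESeq2 1.42.0, other scaling, filters and sets of libraries, a Y-linked covariate, and each replicate left out in turn. Genes at 0 in a group are given against a floor of 3 counts over the group, and intervals on count ratios (95%) cover counting error only. Gene symbols and positions come from GENCODE M21, which held 55141 of 55487 identifiers. Genes named are the 12 largest changes per direction without overlap and averaging 5 CPM or more in the group where they were higher, marked members of the 43 lists, and up to 5 further called members per list. A few more members were named after their values were seen, where they were the exceptions in a small count or carry a printed promoter. The members and lists were chosen with earlier results of these data known. A few genes of the lists are counted but not reported here by name.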

Additional observations from a re-analysis of the deposited data

How the results depend on the processing

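Called genes between WT tumours and untreated WT colon numbered 7753 to 9733 over the alternatives, against 9290. Upper-quartile scaling moved the median of all genes from 0.09 to -0.03. Against day 7 the count was 2311 when only those 6 libraries were fitted and 4771 to 7082 otherwise, and the cause was not tested. The genotype test called 91 genes with DESeq2 and 0 to 43 with a replicate left out (20 without untreated KO replicate 2, 14 without untreated KO replicate 3, 1 without KO tumour replicate 1). Of 391 named genes, 348 were called, of which 308 kept their call in every alternative, 40 lost it in some and 0 reversed. A call was also counted as lost where an alternative gave no adjusted p, as for Reg3g with DESeq2. Of the 43 not called, 19 gained a call in some.

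Sign changes occurred only among genes that were not called. Log2 fold changes with DESeq2, RLE factors, upper-quartile factors, no filter, the groups alone and the 12 WT libraries were -0.02, -0.02, -0.07, -0.02, -0.03 and -0.05 for Mki67, -0.02, -0.02, -0.07, -0.02, -0.03 and -0.06 for Krt20, and -0.04, -0.04, -0.08, -0.03, -0.05 and -0.06 for Id1. With the Y-linked covariate Slc9a3 was at 0.89 and Muc2 at 0.14. With a replicate left out the ranges were -0.19 to 0.23 for Mki67, -0.87 to 0.39 for Krt20, -0.10 to 0.20 for Id1, -0.63 to 3.52 for Slc9a3, -1.54 to 0.76 for Muc2, -1.12 to 0.31 for Spdef, -2.54 to 0.38 for Trpm5, -2.18 to 0.17 for Pou2f3, -0.46 to 0.56 for Jchain, -0.15 to 0.84 for Igha, -0.56 to 0.08 for Ptgs1, -0.17 to 0.12 for Slc2a1, -1.26 to 0.12 for Car9, -2.14 to 2.39 for Cdx2, -1.01 to 0.12 for Hoxd13, -0.23 to 0.02 for Epcam, -12.41 to 10.69 for the gene Xist and -0.34 to 0.83 for Ddx3y. The cause was not tested.

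No paired analysis was possible because the labels give no number that ties a tumour to a colon sample. In the simulated counts, 58 of 100 genes changed 2-fold were recovered, so with 3 libraries per group differences of that size can be missed. How often this happened in these data was not tested. Any difference in handling between the groups and the effect of the tumours cannot be told apart.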
